A study of Mus musculus with 5 samples.

Results

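The genes repressed at 4 h are a module of 75 genes whose RNA was low in the mouse hippocampus 4 h into seizures that kainic acid had set off. They were selected on the values themselves: a gene needed at least 200 counts in the control library and a ratio to the control of at most 0.5 in both libraries of the 4 h time point. The ratio is that of CPM + 0.1, where CPM scales the counts of a library to the same total, summed over all its genes (counts per 1000000). Of 55385 genes in the files, 9973 had at least 200 control counts, and 75 of these met the rule.

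The data are counts of RNA sequencing reads per gene in 5 libraries of hippocampal RNA from male C57/bl6 mice aged 3 months. The control group (1 library) was untreated and received no vehicle injection, and the other groups received kainic acid at 20 mg/kg into the peritoneum and were taken 1 h (1 library), 4 h (2 libraries, called library 1 and library 2) or 8 h (1 library) after seizure onset. According to the methods of the study, only animals that reached stage 5 seizures were used. Whether a library came from a single mouse is not stated, so the spread between the 4 h libraries may be partly technical. Gene counts summed to 19100374 in the control and 17744508 at 1 h, 18250114 and 19109204 in libraries 1 and 2 at 4 h, and 16612225 at 8 h. A count of 3, taken as the floor, is worth between 0.157 and 0.181 CPM in these libraries, well below every member value given here.

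Kainic acid activates a class of glutamate receptors and drives the principal neurons of the hippocampus into prolonged firing. Firing neurons switch on immediate early genes within minutes, and later waves of rising and falling genes follow. The granule cells of the dentate gyrus, whose axons are the mossy fibres, receive the main input to the hippocampus and carry a well known set of marker genes. As a check of the labels, the summed CPM of 12 immediate early genes was 283 in the control and 5958 at 1 h, 3824 and 1235 in libraries 1 and 2 at 4 h, and 272 at 8 h. Below, values given in the order of the libraries follow this order.

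Because the control and both 4 h libraries chose the members, the values at 4 h are a description and no test of them is given. The median ratio of the members was 0.374 in library 1 and 0.451 in library 2, and the lowest ratios were 0.0544 and 0.180, both of Dsp. Library 1 held the lower value for 59 of the 75 members and for 6556 of the 9973 genes. It was also the library with more low genes in general: 496 of the 9973 genes had a ratio of at most 0.5 in library 1 and 102 in library 2. Low in library 1 alone were 421 genes, and in library 2 alone 27. Both conditions were met by 0.752% of the 9973 genes, which is the module itself.

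**Figure D1:**
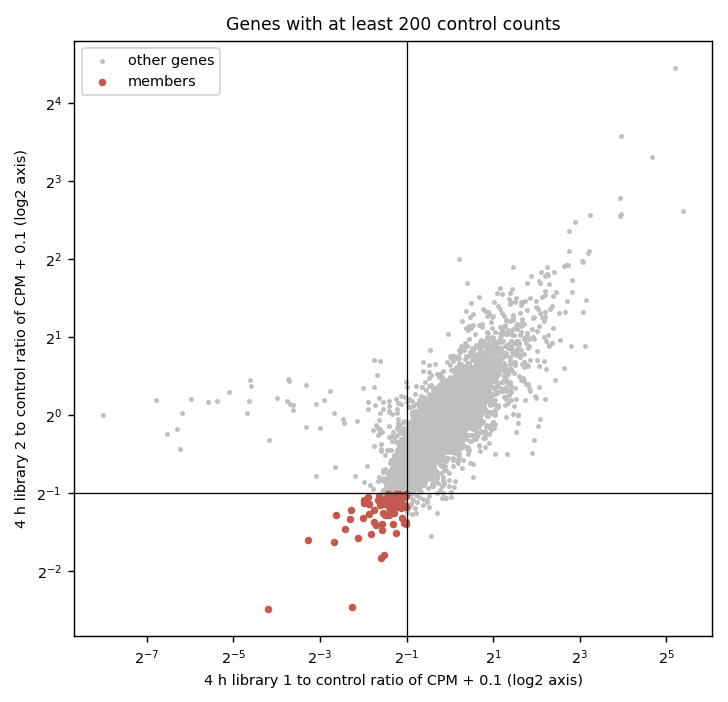
Each point is a gene with at least 200 control counts, with its ratio to the control of CPM + 0.1 in library 1 (x axis) and library 2 (y axis) at 4 h, both on log2 axes, and the black lines mark 0.5. The 75 members (red) fill the lower left corner, and a streak of other genes lies far to the left in library 1 and near 1 in library 2.

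The libraries at 4 h differed in ways that bear on the rule. Over the 9973 genes, the median log2 ratio to the control was -0.21 in library 1, -0.10 in library 2, -0.08 at 1 h and -0.02 at 8 h. The median gene thus sat furthest below the control in library 1 on the CPM scale. With TMM factors, which scale libraries on the bulk of their genes, these medians at 4 h were -0.04 and -0.02, and 47 genes met the rule, all of them among the 75. Reads on no gene made up 33.1% of the reads in library 1, 25.3% in library 2, 24.7% in the control, and 29.0% and 30.9% at 1 h and 8 h.

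The streak of genes low in library 1 alone included the choroid plexus, the tissue that makes cerebrospinal fluid. The summed CPM of 14 choroid plexus markers was 4372 in the control and 1758 at 1 h, 33.3 in library 1, 4456 in library 2 and 3451 at 8 h. Ttr, the most abundant of them, had 3904, 1558, 15.1, 3929 and 3044 CPM in the same order. None of the 13 choroid plexus markers with at least 200 control counts is a member, since all of them lay above 0.5 in library 2. Markers of thalamus and habenula, regions next to the hippocampus, summed to 105, 104, 369, 193 and 82.8 CPM, and the most abundant of these 7, Slc17a6, had 34.1, 41.0, 91.7, 42.2 and 31.0 CPM. These markers thus differed between the libraries, and their part in the values of the members was not tested.

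The threshold cut through a dense range of values. Just inside it lay Ftx, Neurod1 and Ptpn14, whose larger ratio of the pair was 0.4971, 0.4984 and 0.4997. Just outside lay Itga8, Bcl7a and Sema6c, with 0.501, 0.502 and 0.502.

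Apart from the low values at 4 h, the members shared few features of size or place. They lay on 20 chromosomes, and 70 were protein coding. Their median exon length was 4806 bp, against 5148 bp over the 9973 genes, and their median span on the genome was 29579 bp, against 29170 bp. Their level in the control was lower, with a median of 22.4 CPM against 44.9 CPM, and 5.49 against 9.03 CPM per kb of exon. Per kb, Neurod6 was the most abundant member at 69.8 CPM, before Lrrn3 at 25.4, Zkscan16 at 16.2 and Narf at 15.9.

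Some members are neighbours. Lct and Mcm6 lie side by side on chromosome 1 of GRCm38 on the minus strand (chr1:128284756-128328318 and chr1:128331590-128359664), with 3271 bp between them. Gm38020 lies within the span of Ftx on the X chromosome, on the same strand. Opposite-strand exons overlap 65.2% of the exon length of Rpusd3 and 66.6% of that of AI480526. The library kit keeps the strand, but the strand setting of the counting is not stated, so the counts of these 2 genes are uncertain.

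Promoter windows of 300 bases around the start of the gene were found for 59 of the 75 members in RefSeq (GRCm38.p6), 66 windows in all. On either strand, GGGCGG, the GC box, was present in 60.6% of these windows and in 35.7% of the 32851 windows of all genes. TATAAA was present in 3.03% against 13.6%, CACGTG in 6.06% against 7.15%, TGANTCA in 3.03% against 7.81%, and TGACGTCA in 0% against 1.79%. No motif of the 5 contains another. The windows of all genes include genes that are silent in the hippocampus, so these shares are a description only. Windows of 4 members are printed to span the time courses described next: Dsp and Lct had the lowest mean ratios at 4 h among the granule cell markers with at least 200 control counts and were near the control at 8 h, C1ql2 had the highest ratio of the module at 8 h, and Plk5 the lowest. Capitals mark any of the 5 motifs on either strand. Dsp is at chr13:38151044-38151343 on the plus strand, Lct at chr1:128328269-128328568 on the minus strand, C1ql2 at chr1:120340332-120340631 on the plus strand, and Plk5 at chr10:80356209-80356508 on the plus strand.
Dsp: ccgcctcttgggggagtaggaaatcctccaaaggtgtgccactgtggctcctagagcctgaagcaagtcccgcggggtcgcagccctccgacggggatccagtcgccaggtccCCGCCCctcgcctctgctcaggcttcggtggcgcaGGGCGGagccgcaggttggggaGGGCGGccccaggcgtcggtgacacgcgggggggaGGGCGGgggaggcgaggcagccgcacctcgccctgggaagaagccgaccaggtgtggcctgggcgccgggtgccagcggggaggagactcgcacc
Lct: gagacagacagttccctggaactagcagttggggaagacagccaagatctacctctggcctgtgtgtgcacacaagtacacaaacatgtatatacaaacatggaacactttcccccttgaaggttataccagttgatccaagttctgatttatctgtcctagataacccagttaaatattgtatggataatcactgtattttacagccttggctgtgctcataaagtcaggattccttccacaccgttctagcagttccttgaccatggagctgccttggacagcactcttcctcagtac
C1ql2: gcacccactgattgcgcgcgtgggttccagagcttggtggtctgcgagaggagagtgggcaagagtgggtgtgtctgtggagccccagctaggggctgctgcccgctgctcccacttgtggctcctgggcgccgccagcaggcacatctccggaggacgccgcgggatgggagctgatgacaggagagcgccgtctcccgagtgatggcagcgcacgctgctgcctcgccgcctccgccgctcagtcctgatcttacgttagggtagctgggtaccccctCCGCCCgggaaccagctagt
Plk5: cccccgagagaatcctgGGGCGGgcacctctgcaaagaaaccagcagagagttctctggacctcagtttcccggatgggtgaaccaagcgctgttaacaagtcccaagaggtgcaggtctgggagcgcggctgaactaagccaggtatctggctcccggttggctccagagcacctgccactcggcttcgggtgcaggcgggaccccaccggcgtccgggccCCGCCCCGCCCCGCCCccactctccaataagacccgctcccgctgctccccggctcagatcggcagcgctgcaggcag
The GC box stands in the windows of Dsp, C1ql2 and Plk5, and the window of Lct holds none of the 5 motifs.

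The dentate granule cell markers Dsp and Lct were among the 3 members with the lowest mean 4 h ratio. Of 9 such markers, 8 had at least 200 control counts and 4 are members: Dsp, Lct, C1ql2 and Stxbp6. Over all 9973 genes the share of members was 0.752%. The marker list was chosen with earlier results of these data known, so nothing is read from this count. Dsp (ENSMUSG00000054889.10) encodes desmoplakin, a protein that anchors intermediate filaments at desmosomes. It had 75.2 CPM in the control and 65.5 at 1 h, 4.00 and 13.4 at 4 h, then 72.3 at 8 h. The 4 h libraries were thus far below all others, which lay close together. Lct (ENSMUSG00000026354.8), the gene of the milk sugar enzyme lactase, had 54.7 CPM in the control and 54.9 at 1 h, 5.59 and 18.1 at 4 h, then 52.3 at 8 h. Its course was like that of Dsp, low at 4 h alone.

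C1ql2 (ENSMUSG00000036907.9) encodes a secreted C1q-like protein that organises mossy fibre synapses. It had 30.6 CPM in the control and 27.7 at 1 h, 10.2 and 11.6 at 4 h, then 61.3 at 8 h, so that the 8 h library was the highest of all. The ratio at 8 h was 2.0, with a 95% binomial interval from 1.81 to 2.22 that, like all such intervals here, covers counting error only. Stxbp6, which encodes the SNARE-binding protein amisyn, had 68.1, 68.3, 28.5, 33.8 and 46.5 CPM in the order of the libraries. It was still below the control at 8 h.

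The other granule cell markers differed from these and from each other. Prox1, the transcription factor that fixes granule cell identity, had ratios of 1.06 at 1 h, 2.53 and 1.89 at 4 h, then 1.30 at 8 h. Calb1, the most abundant of the list, had 107 CPM in the control and 99.2 at 1 h, 82.3 and 71.8 at 4 h, then 64.0 at 8 h. Npnt and Glis3 were above the control as well, with ratios of 1.27 and 1.11 in library 1, 1.54 and 1.23 in library 2, and 1.58 and 1.40 at 8 h. Tdo2, with fewer control counts than the rule asks for, had 6.96, 4.40, 11.1, 1.10 and 0.843 CPM in the order of the libraries, above the control in library 1 and far below it in library 2. The summed CPM of the 9 markers was 440, 425, 342, 317 and 432 in the order of the libraries. In bulk tissue, fewer cells of a type and less RNA per cell cannot be told apart. Of 6 markers of CA1 pyramidal cells none is a member. Their sum was 511, 470, 353, 415 and 430 CPM, and the most abundant, Mpped1, had 173, 158, 118, 131 and 129 CPM.

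**Figure D2:**
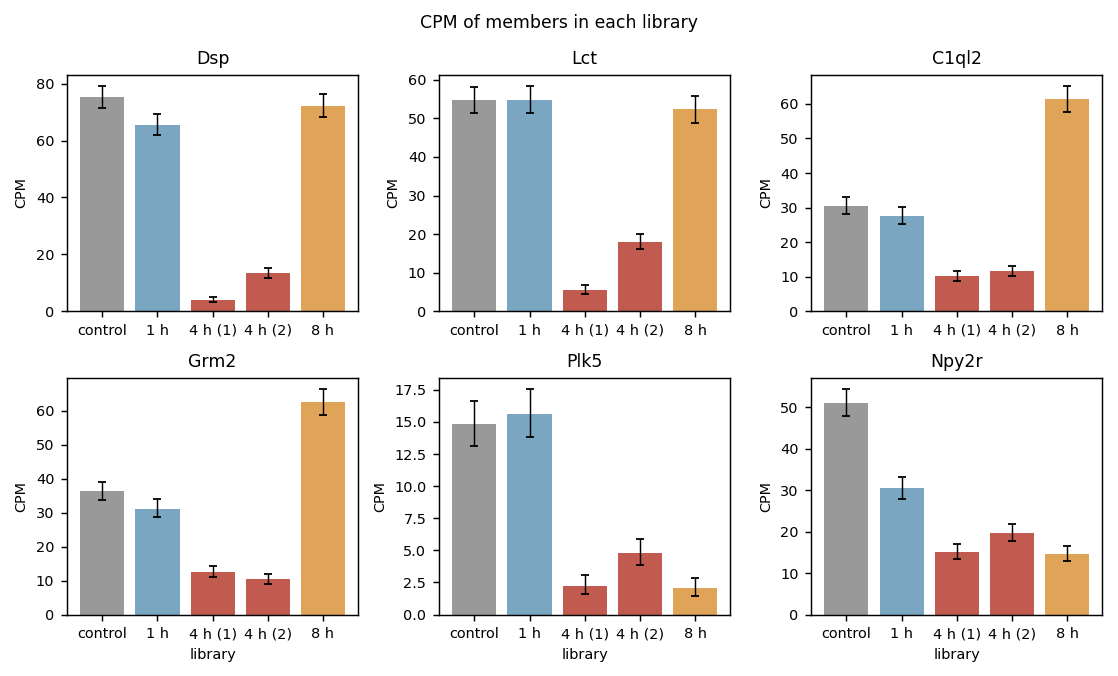
CPM of 6 members in the 5 libraries, with exact Poisson 95% intervals that cover counting error only. Dsp and Lct are low at 4 h alone, C1ql2 and Grm2 are highest at 8 h, and Plk5 and Npy2r are as low at 8 h as at 4 h.

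Receptors, channels and transporters made up 10 members, with a median ratio of 0.680 at 1 h and 0.710 at 8 h. Grm2 (ENSMUSG00000023192.12) encodes a metabotropic glutamate receptor that damps transmitter release from mossy fibres. It had 36.2 CPM in the control and 31.2 at 1 h, 12.6 and 10.4 at 4 h, then 62.4 at 8 h. As for C1ql2, the 8 h library was the highest, with a ratio of 1.72 (95% interval 1.56 to 1.90). Npy2r (ENSMUSG00000028004.12), a presynaptic receptor of neuropeptide Y, had 51.1 CPM in the control and 30.4 at 1 h, 15.1 and 19.8 at 4 h, then 14.7 at 8 h. At 1 h its ratio was 0.596, against 0.861 for Grm2, and at 8 h it lay at 0.289 of the control (0.249 to 0.331).

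The serotonin receptor gene Htr1a had 42.7, 30.5, 18.5, 20.1 and 22 CPM in the order of the libraries. Like Npy2r it was near its 4 h level at 8 h. Among 27 receptors for monoamines, peptides and purines with at least 200 control counts, Npy2r and Htr1a are the members, and the median ratio of the 27 was 0.848 at 1 h, 0.808 and 0.875 at 4 h, then 0.843 at 8 h. Gpr12, an orphan receptor coupled to cyclic AMP, had a ratio of 0.690 at 1 h and 0.384 at 8 h. Kcng1, a silent subunit that modifies other potassium channels, had 14.3 CPM in the control and 6.93 at 1 h, 3.23 and 4.76 at 4 h, then 16.1 at 8 h. It had the lowest 1 h ratio of the module, 0.487 (0.387 to 0.60), and at 8 h it was at 1.12 of the control. With a pseudocount of 1 CPM, Ccdc177 was lower than Kcng1 at 1 h, at 0.507 against 0.517. Of 30 other potassium channel genes with at least 200 control counts none is a member, against 0.752% of the 9973 genes. Their list leaves out Kcng1 and was chosen with earlier results known, so nothing is read from this. Scn3a, a sodium channel subunit, had 109, 109, 48.5, 54.4 and 96.3 CPM.

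Secreted signals and modulators of signalling pathways numbered 6, C1ql2 included. Wnt7a, a Wnt ligand, had 14.6, 9.86, 2.90, 6.23 and 6.86 CPM in the order of the libraries. Of 13 Wnt pathway genes with at least 200 control counts it is the member, and the median ratio of the 13 was 0.753 at 1 h, 0.562 and 0.755 at 4 h, then 0.776 at 8 h. Chrd, which encodes the BMP antagonist chordin, had 74.4, 57.6, 18.4, 30.0 and 59.6 CPM. Cdon, a hedgehog co-receptor, had the highest 1 h ratio of the module, 1.14 (0.981 to 1.32), an interval that includes 1, and a ratio of 1.04 at 8 h. Dact2, a modulator of Wnt signalling, was at 0.997 of the control at 8 h, whereas Neurl1b, a ubiquitin ligase of the Notch pathway, was at 0.457. These 4 are in none of the pathway lists, which were chosen with earlier results known. Members were 0.752% of the 9973 genes, so nothing is read from a list without one. No gene of the lists of the BMP, TGF-beta and hedgehog pathways (16 with at least 200 control counts) and of the Notch pathway (8) is a member, and their median ratios were 1.11 and 0.777 in library 1, 1.15 and 0.983 in library 2, and 1.10 and 1.23 at 8 h.

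Transcription factors and RNA-binding proteins were represented by 9 members. Neurod6, a basic helix-loop-helix factor of pyramidal neurons and the most abundant member, had 150 CPM in the control and 143 at 1 h, 56.2 and 66.4 at 4 h, then 110 at 8 h. The related Neurod1 had 15.6, 7.72, 7.73, 6.02 and 8.67 CPM. Neurod1 was thus as low at 1 h as at 4 h, whereas Neurod6 at 1 h was near the control. They are the members among 26 homeobox, SOX and basic helix-loop-helix factors with at least 200 control counts, whose median ratio was 0.98 at 1 h, 0.734 and 0.748 at 4 h, then 0.922 at 8 h. Neurod6 also belongs to a list of 9 pyramidal and granule neuron markers, whose sum was 3151, 2995, 2595, 2797 and 3170 CPM and whose most abundant gene, Camk2a, had 1496, 1422, 1124, 1334 and 1366 CPM.

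Per3, a component of the circadian clock, had 69.6 CPM in the control and 61.7 at 1 h, 32.2 and 27.9 at 4 h, then 25.8 at 8 h. Its lowest value was thus that at 8 h. Of 14 genes of the circadian clock and its output, 6 had a ratio of at most 0.5 at 8 h, against 0.812% of the 9973 genes, and the median ratio of the 14 was 0.925 at 1 h, 1.28 and 0.892 at 4 h, then 0.527 at 8 h. The sample labels place the experiments in the dark phase, always at the same times, without giving the clock time of each library, and its part in the value of Per3 was not tested.

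Proteins of cilia, centrosomes and microtubule motors numbered 5, and those grouped under cell cycle and chromosomes 5 more. Cys1, a protein of primary cilia, had 14.8, 10.7, 3.01, 2.62 and 7.64 CPM in the order of the libraries. Nek10, a kinase of the NIMA family, had 13.4, 8.12, 2.08, 5.49 and 4.09 CPM, and Crocc, the rootletin of the ciliary rootlet, had 63.3, 64.0, 15.9, 29.0 and 32.0 CPM. The 8 h ratios of the 5 members of the cilium group lay between 0.311 and 0.650. Kif26b, a kinesin family member, had ratios of 0.966 at 1 h and 0.533 at 8 h.

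Plk5 (ENSMUSG00000035486.14), a polo-like kinase family member expressed in brain, had 14.8 CPM in the control and 15.6 at 1 h, 2.25 and 4.76 at 4 h, then 2.05 at 8 h. It had the lowest 8 h ratio of all 75 members, 0.144 (0.0938 to 0.198), while its 1 h ratio was 1.05. Among the other genes of the cell cycle and chromosome group, Mcm6, a subunit of the replicative helicase, had 18.0, 14.1, 6.14, 7.54 and 16.7 CPM. Traip, a ubiquitin ligase active in replication, was at 1.09 of the control at 8 h. Cdc25b, the phosphatase that activates mitotic kinases, had a ratio of 1.03 at 1 h and 0.567 at 8 h.

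Vesicle traffic and small GTPase proteins accounted for 7 members, with 8 h ratios between 0.514 and 0.797. Rab3d, a GTPase of regulated secretion, had 15.7 CPM in the control and 8.96 at 1 h, 2.85 and 5.65 at 4 h, then 12.5 at 8 h. In addition to Dsp, 8 adhesion and matrix proteins were members. Lrrn3, a membrane protein with leucine-rich repeats, had 98.3, 80.4, 41.0, 43.9 and 55.1 CPM, and Col5a1, a collagen chain, had ratios of 1.01 at 1 h and 0.848 at 8 h. Within this group, Pcdh19, a protocadherin, and Cntnap3, of the contactin-associated family, had the lowest 8 h ratios, 0.487 and 0.386.

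Enzymes of glycan and lipid metabolism numbered 6, Lct included. Extl1, a glycosyltransferase of heparan sulfate, had 53.9, 45.0, 23.2, 24.4 and 28.5 CPM, and Engase, a glycosidase of the cytosol, had ratios of 0.573 at 1 h and 0.850 at 8 h. Kinases, phosphatases and a kinase anchor formed a group of 5. Dclk3, a doublecortin-like kinase, had 20.7 CPM in the control and 16.1 at 1 h, 5.81 and 7.12 at 4 h, then 36.1 at 8 h. With C1ql2 and Grm2, it was above the control at 8 h, at 1.74 (1.54 to 1.99). Tek, the angiopoietin receptor of endothelial cells, had 13.9, 10.7, 6.63, 6.12 and 10.8 CPM. The 11 endothelial markers summed to 201, 173, 184, 159 and 211 CPM, 1 of the 8 with at least 200 control counts is a member, and Slco1a4, the most abundant, had 50.7, 38.6, 11.1, 29.7 and 36.4 CPM. The median ratio of the 8 was 0.79 at 1 h, 0.72 and 0.66 at 4 h, then 1.09 at 8 h.

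The members that are not protein coding were B230303A05Rik, Ftx, Gm2824, Gm38020 and AI480526. Ftx, a long noncoding RNA of the X inactivation centre, had 54.7, 45.6, 27.1, 27.1 and 57.4 CPM. B230303A05Rik was at 0.790 of the control at 1 h and 0.329 at 8 h. Other or unclear roles were held by 9 members, AI480526 included. Pnma2, which encodes a protein of the paraneoplastic antigen family, had 89.3, 66.8, 31.4, 36.7 and 44.1 CPM, and Narf, which encodes a protein that binds prelamin A, had 76.6, 65.6, 29.2, 33.1 and 58.9 CPM. Zkscan16, a zinc finger gene counted with the transcription factors, had 45.3, 33.6, 13.3, 19.5 and 23.5 CPM. Ccdc177, a coiled-coil protein, had 24.1, 11.7, 4.82, 9.52 and 15.3 CPM.

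**Figure D3:**
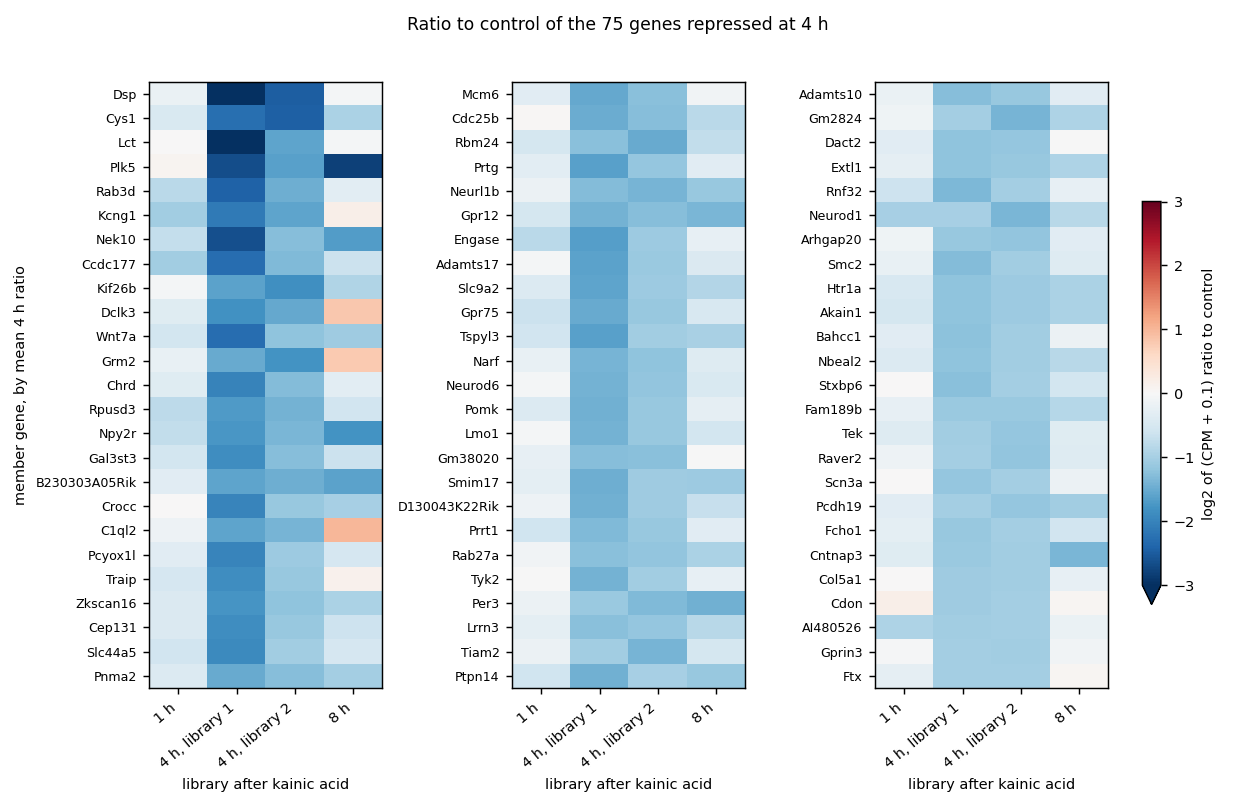
Log2 ratio to the control of CPM + 0.1 for the 75 members in the libraries of 1 h, 4 h (libraries 1 and 2) and 8 h, ordered from the lowest mean 4 h ratio, with colours ending at -3 and 3. The 4 h columns are blue by the choice of members, most of the 1 h column is pale, and the 8 h column runs from dark blue (Plk5) to orange (C1ql2, Grm2 and Dclk3).

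At 1 h all members lay near the control or below it. The control was used in the choice of members and is the divisor at 1 h and at 8 h, so each is given by its own values. A gene that reads high in that single library is more likely to be chosen and to be low at both times. Nothing is therefore read from differences between the members and all genes in these ratios to the control. The median ratio of the members at 1 h was 0.795, against 0.946 over the 9973 genes, and they ranged from 0.487 to 1.14. A ratio of at most 0.5 was found for 3 members, Kcng1, Ccdc177 and Neurod1, and for 0.331% of the 9973 genes. None of the 3 stayed at or below 0.5 with TMM factors (0.512, 0.514 and 0.524), with DESeq2 size factors or with a pseudocount of 1 CPM, and all 3 did with CPM without mitochondrial genes and the 50 most abundant genes. A ratio of at most 0.8 was found for 39 of the 75, against 11.4%, and for 29 with TMM factors, against 7.10%. On the CPM scale the other 36 members lay between 0.8 and 1.2, against 82.1% of the 9973 genes. None was above 1.2, against 6.54%. After Kcng1, Ccdc177 and Neurod1, the lowest were AI480526 at 0.531, Engase at 0.573 and Rab3d at 0.575. The highest were Cdon, Plk5, Cdc25b, Crocc and Col5a1 from 1.14 down to 1.01, then Lct at 1.00.

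At 8 h the members spread from far below to above the control. Their median ratio was 0.686, against 0.987 over the 9973 genes, with a range from 0.144 to 2.0. A ratio of at most 0.5 was found for 13 members, against 0.812% of all 9973 genes. These were Plk5, Npy2r, Nek10, B230303A05Rik, Per3, Gpr12, Cntnap3, Ptpn14, Neurl1b, Smim17, Wnt7a, Pcdh19 and Pnma2. A ratio of at most 0.8 was found for 53 members, against 14.3%. Near the control, between 0.8 and 1.2, lay 19 members, Dsp, Lct, Ftx and Kcng1 among them, against 73.3% of all genes. Above 1.2 lay 3 members, Dclk3, Grm2 and C1ql2, against 12.4% of all genes. As at 1 h, the control that chose the members is the divisor, so nothing is read from these differences.

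**Figure D4:**
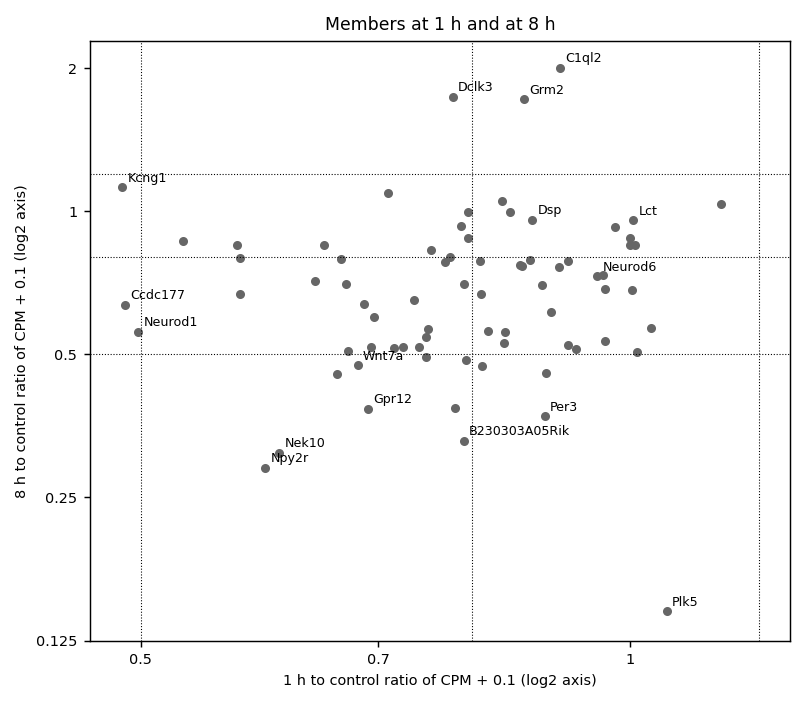
Ratio to the control of CPM + 0.1 at 1 h (x axis) and 8 h (y axis) of the 75 members, on log2 axes, with dotted lines at 0.5, 0.8 and 1.2. Both axes share the control library, so the plot shows the values side by side. Plk5 lies near 1 at 1 h and at 0.144 at 8 h, and Kcng1 lies at the left edge and near the control at 8 h.

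The level at 8 h relative to that at 4 h varied as widely. At least 1.5 times the mean CPM of the 4 h libraries was reached at 8 h by 45 members, against 7.9% of the 9973 genes. The 4 h libraries chose the members for low values, so nothing is read from this difference. The median of this ratio was 1.76 and the highest was 8.20, of Dsp, followed by C1ql2, Dclk3 and Grm2 at 5.6, 5.52 and 5.39. For 6 members it was below 1, against 3659 of the 9973 genes. Plk5 was lowest at 0.596, then Cntnap3 at 0.812, Npy2r at 0.844, Per3 at 0.858, B230303A05Rik at 0.943 and Gpr12 at 0.976.

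The ratio of 8 h to 1 h is the one that used no library of the rule. The median 8 h to 1 h ratio of the members was 0.849, against 1.04 over the 9973 genes. Below 1 were 51 members and above 1 were 24, against 4275 and 5698 of the 9973 genes. A ratio of at most 0.5 was found for 5 members, against 1.42% of all genes. These were Plk5 at 0.137 (95% interval 0.0890 to 0.188), B230303A05Rik at 0.417, Per3 at 0.418, Npy2r at 0.484 and Cntnap3 at 0.495. With TMM factors it was 8 members, the same 5 with Crocc, Nek10 and Neurl1b, against 1.83% of all genes, and 8 as well with DESeq2 size factors. On the CPM scale, a ratio of at least 2 was found for 3 members, against 1.07%: Kcng1 at 2.31 (1.87 to 2.91), Dclk3 at 2.24 and C1ql2 at 2.21. Neither time point was replicated, and the intervals cover counting alone.

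**Figure D5:**
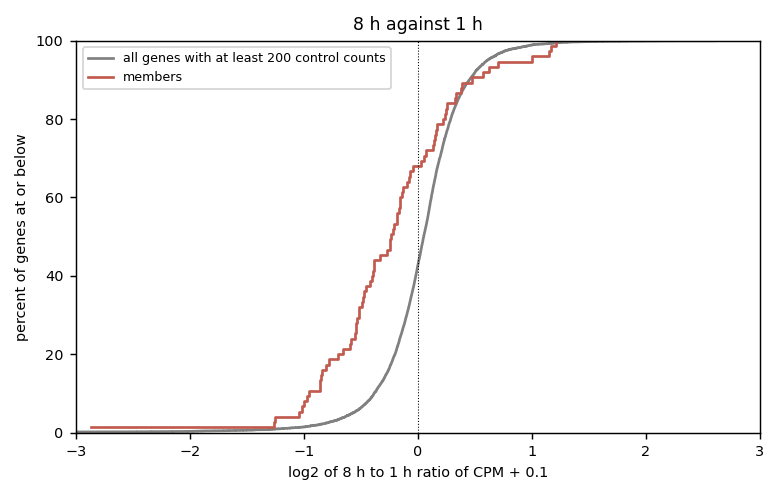
Cumulative percent of genes (y axis) at or below a given log2 ratio of 8 h to 1 h (x axis), for the 75 members (red) and all 9973 genes with at least 200 control counts (grey). The members lie to the left over most of the range, with medians of 0.849 and 1.04 on the ratio scale, and the curves meet at the upper end.

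With low counts filtered out, no member passed the test across all genes at 8 h against 1 h (unfiltered counts stand at the end). The fit was the quasi-likelihood test of edgeR, with p values adjusted by the Benjamini-Hochberg method, on all 5 libraries, with 19768 genes tested, the 75 members among them. It has 1 residual degree of freedom, from the 4 h pair, and the single libraries are assumed to vary like that pair. The same pair chose the members, so their p values are not free of the rule and nothing is read from them. At an adjusted p of at most 0.05, 0 of the 75 members and 0% of the genes were called, and the lowest adjusted p of a member was 0.609 (edgeR quasi-likelihood, Benjamini-Hochberg). The count at an unadjusted p under 0.05 was 21 members and 1164 of all genes. DESeq2 called 69 genes (0.349%), of which 1 was a member, Plk5, and limma-voom called 0.

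The other contrasts include the control or the 4 h libraries, which chose the members, so their counts are given over all genes only. At 1 h against the control, edgeR called 0 genes, with 478 at an unadjusted p under 0.05, and DESeq2 called 56 (0.283%). At 8 h against the control, edgeR called 0 genes, with 892 at an unadjusted p under 0.05, and DESeq2 called 33 (0.167%). At 4 h against the control, edgeR called 1 gene (0.00506%), with 2291 at an unadjusted p under 0.05, and DESeq2 called 238 (1.2%). At 8 h against 4 h, edgeR called 0 genes, with 1726 at an unadjusted p under 0.05, and DESeq2 called 129 (0.653%). Limma-voom called 0 genes in each of these.

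Of the 18 cell type lists 3 hold a member, and of the 14 gene lists 4 do. All these lists were chosen with earlier results of these data known, so nothing is read from the number of members in any of them. Gene lists without a member that are not described elsewhere were those of ionotropic glutamate receptors, GABA receptors, FGF and ephrin signalling, postsynaptic scaffolds and adhesion, cholesterol synthesis, and nuclear long noncoding RNAs. Further cell type lists without a member are given here by their summed CPM in the order of the libraries. It was 269, 266, 313, 270 and 294 for 8 markers of CA3 and CA2 pyramidal cells, with Rgs14, the most abundant, at 81.6, 85.0, 38.0, 70.7 and 74.7 CPM. The higher sum in library 1 was that of Nectin3, with 51.0 CPM in the control and 179 in that library, and the median ratio of the 5 markers with at least 200 control counts was 0.628 there. For 10 interneuron markers the sum was 901, 928, 1165, 1065 and 938, with Gad1 at 267, 314, 475, 376 and 290 CPM. The median ratio of the 10 was 1.10 in library 1 and 0.993 in library 2, with 4 and 5 of them below 1. For 8 markers of young granule neurons and progenitors the sum was 67.6, 66.2, 172, 152 and 151, with Sox11 at 31.3, 33.3, 134, 112 and 111 CPM. The higher sums of the last list at 4 h and 8 h were mostly Sox11, while Dcx had 13.1, 13.9, 11.0, 10.3 and 13.6 CPM.

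Glial sums were 4891, 4854, 5276, 5303 and 5311 CPM for 11 astrocyte markers (most abundant Slc1a2), 3707, 4396, 3865, 5317 and 3722 for 10 oligodendrocyte markers (Mbp) and 233, 224, 191, 251 and 212 for 8 markers of their precursors (Pdgfra). Within the astrocyte list, Gfap had 230, 269, 550, 505 and 620 CPM. The median ratio of the 11 astrocyte markers was 1.01 and 1.05 in libraries 1 and 2, and 1.02 at 8 h. Oligodendrocyte sums differed between the 4 h libraries more than astrocyte sums did. Sums of other cells were 190, 184, 162, 184 and 186 CPM for 8 mural cell markers (Rgs5), 113, 68.5, 90.6, 98.2 and 94.8 for 11 markers of meningeal fibroblasts (Dcn) and 29.2, 21.6, 12.2, 46.3 and 27.9 for 8 ependymal markers (Foxj1). For 8 striatal markers (Ppp1r1b) they were 82.0, 80.8, 113, 115 and 87.6, and for 5 blood markers (Hbb-bs) 141, 112, 219, 148 and 192. Ppp1r1b itself had 35.3, 26.6, 16.2, 42.0 and 35.8 CPM. In library 1 it was thus below the control, while the striatal sum was above. No gene of the 18 cell type lists had a count of 0 in the control.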

How the data were processed

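The authors prepared stranded total RNA libraries, sequenced them as paired ends and deposited an unnormalized count per gene; the submitters' processing notes name STAR 2.5.1b, HTSeq and GRCm38.p4. The strand setting and annotation release are not stated. The 5 summary lines of each file held between 37.8% and 44.0% of its total and were left out. From these counts, CPM and ratios (pseudocount 0.1 CPM) were computed in Python 3.11.15, with exact binomial 95% intervals by scipy 1.17.1 that cover counting error only. Tests used R 4.3.3 with edgeR 4.0.16 (TMM, filterByExpr), DESeq2 1.42.0 and limma 3.58.1, and were tested on simulated data. Positions and exon lengths are from GENCODE M21 (GRCm38), where all 75 members were found, and promoters from RefSeq (GRCm38.p6). The members and the 18 marker and 14 gene lists were chosen with earlier results of these data known, and the functional groups after the values were seen; 1 marker list, and the values of 6 gene lists without a member, are not reported here. Named were the 15 members lowest at 4 h, the 10 most abundant per kb, the 6 lowest and 6 highest at 1 h and at 8 h, members of a list, the 3 genes on each side of the threshold and the most abundant marker of most other cell types, with others chosen after their values were seen. Alternatives changed the count minimum, pseudocount, threshold, scaling, filter, tool and the 4 h library used.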

Additional observations from a re-analysis of the deposited data

How the results depend on the processing

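The size of the module depends on its thresholds and on scaling. It held 31 genes with 500 control counts, 47 with TMM factors and 47 with DESeq2 size factors, 14 at a ratio of 0.4 and 307 at 0.6, and between 102 (library 2 alone) and 496 (library 1 alone) with 1 library at 4 h. The percent low at 1 h was 0 with 500 counts, with a pseudocount of 1 CPM, with TMM and with DESeq2 size factors, 14.3 at a ratio of 0.4 and 1.30 at 0.6. With 1 library at 4 h it lay between 2.94 and 5.44. The percent low at 8 h was 9.12 at a ratio of 0.6 and between 5.04 and 17.6 with 1 library. The median 1 h ratio was 0.856 with 500 counts and between 0.787 and 0.834 with 1 library. The median 8 h ratio was 0.774 at 0.6 and between 0.675 and 0.829 with 1 library. The cause was not tested, beyond the changed rule itself. The ratios of single members at 1 h and 8 h stayed within their counting intervals under 3 other scalings and a pseudocount of 1 CPM.

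Counts of called genes depended on the tool and the filter. DESeq2 called 56, 238, 33, 69 and 129 genes at 1 h, 4 h and 8 h against the control, 8 h against 1 h and 8 h against 4 h, with 1 member at 8 h against 1 h. Without a filter on low counts, edgeR tested 32732 genes and called 285, 1300, 279, 438 and 957 of them. Of the 438 at 8 h against 1 h, 5 were members. Both fits take their spread from the 4 h pair that chose the members, so nothing is read from these counts of members. At 4 h, limma-voom and RLE factors called 0 genes, in place of 1. The cause was not tested. With a 4 h library left out no residual degree of freedom is left, so no test was run. No paired analysis was possible because only the 4 h group has a replicate. The intervals of ratios at 1 h and 8 h cover counting error only, and the fits take the spread of these single libraries from the 4 h pair.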
